A study of Mus musculus with 18 samples.

Results

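The genes described here are 9 mouse genes that encode surface enzymes or that sense or handle ATP or adenosine, chosen by symbol from the 45706 genes of the deposited tables. They are *Entpd1*, *Nt5e*, *Cd38*, *Dpp4*, *Ada*, *Adk*, *Adora2a*, *Adora2b* and *P2rx7*, and all 9 were found. The measurement was bulk mRNA sequencing of purified CD8+ T cells from OT-I mice, whose transgenic T cell receptor recognises an ovalbumin peptide, cultured with IL-7 and IL-15. Repeat peptide cells received the peptide daily for 5 days, and single peptide cells were stimulated once, washed and cultured on without peptide. From day 5 to day 8 each kind of cell received DMSO or 1 µM ibrutinib, an irreversible inhibitor of the kinase BTK that also binds other kinases. Over these days the peptide stayed in the medium of repeat peptide cells only. The groups held 4 repeat DMSO, 5 repeat ibrutinib, 5 single DMSO and 4 single ibrutinib libraries, 18 in all.

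The libraries came from 6 experiments, named A to F here after the genotype entry that libraries of the same experiment share. Experiments A to D had 1 library in every group, E had only a repeat ibrutinib library, and F had only a single DMSO library. The genotype entries of B, C, D and E name a btk knockout, whereas the strain entry of all 18 libraries gives wild-type OT-I mice. The entries were therefore read as names of experiments, and the Btk genotype of the cells was not tested here. Whether the libraries of a group came from separate mice is not stated in the sources used here, so p-values cover only the spread between these libraries. Total counts ran from 23445922 to 51995372 per library, with a median of 27420966, and repeat ibrutinib D was the deepest. The 8 CD8 T cell markers, among them *Cd3e* and *Cd8a*, summed to 3270 to 4640 TPM in every library, while *Cd4* reached at most 0.17 TPM.

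ATP released by cells is cut outside the cell in steps. CD39, encoded by *Entpd1*, removes phosphates from ATP and ADP to leave AMP, and CD73, encoded by *Nt5e*, turns AMP into adenosine. CD38 consumes NAD and can feed the same route, since NAD breakdown products can also be cut down to AMP. Adenosine deaminase, encoded by *Ada*, removes adenosine by making inosine. CD26, encoded by *Dpp4*, is a dipeptidyl peptidase of the cell surface that binds adenosine deaminase in humans but not in mice. Adenosine kinase, encoded by *Adk*, returns adenosine to AMP inside the cell. The A2A and A2B receptors, encoded by *Adora2a* and *Adora2b*, sense extracellular adenosine and raise cAMP, which restrains T cell receptor signalling, and the P2X7 channel, encoded by *P2rx7*, senses ATP itself. CD39 and CD38 are widely used as surface marks of chronically stimulated CD8+ T cells, and CD73 is found on naive and memory CD8+ T cells of the mouse.

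Promoter sequence was drawn from RefSeq (build GRCm38.p6) for members whose levels differed between repeat and single peptide cells, to show what lies before the start of genes that moved in opposite directions. Entries were matched by symbol for 8 of the 9 genes. Shown are the 250 bases before a start of *Entpd1* and of *Adora2b*, which were higher in repeat peptide cells, and of *Ada* and *Dpp4*, which were lower, since these windows hold no annotated exon. For *Entpd1* this is the downstream one of its entries, as the other window holds annotated exons. The *Entpd1* window is chr19:40659520-40659769 on the plus strand, the *Adora2b* window chr11:62248734-62248983 on the plus strand, the *Ada* window chr2:163750240-163750489 on the minus strand and the *Dpp4* window chr2:62412232-62412481 on the minus strand. Each is printed 5′ to 3′, and capitals mark the matches to any of 6 motifs searched on both strands.
Entpd1: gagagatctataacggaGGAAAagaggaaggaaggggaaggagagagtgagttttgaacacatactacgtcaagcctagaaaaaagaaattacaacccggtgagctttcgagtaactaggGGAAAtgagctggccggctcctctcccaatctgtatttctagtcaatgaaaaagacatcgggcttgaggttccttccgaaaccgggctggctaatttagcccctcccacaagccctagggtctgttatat
Adora2b: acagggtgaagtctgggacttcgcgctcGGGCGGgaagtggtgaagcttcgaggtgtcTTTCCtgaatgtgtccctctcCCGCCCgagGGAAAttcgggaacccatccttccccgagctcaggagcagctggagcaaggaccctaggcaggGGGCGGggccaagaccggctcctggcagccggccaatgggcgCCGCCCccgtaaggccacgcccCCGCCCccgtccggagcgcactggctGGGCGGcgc
Ada: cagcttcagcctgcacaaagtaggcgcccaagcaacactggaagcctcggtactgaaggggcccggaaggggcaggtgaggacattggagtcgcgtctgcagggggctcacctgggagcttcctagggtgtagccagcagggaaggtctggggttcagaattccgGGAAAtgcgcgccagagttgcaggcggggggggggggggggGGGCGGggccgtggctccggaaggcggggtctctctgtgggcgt
Dpp4: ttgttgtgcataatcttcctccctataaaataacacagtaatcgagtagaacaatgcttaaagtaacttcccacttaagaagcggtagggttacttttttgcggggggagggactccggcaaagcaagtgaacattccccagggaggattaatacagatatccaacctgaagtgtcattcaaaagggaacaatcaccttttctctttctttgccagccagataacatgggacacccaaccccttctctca
The motifs were TGANTCA (AP-1), TGACGTCA (CRE), GGAAA (the NFAT core), GGGCGG (the GC box), ACGTG (the hypoxia response core) and CTTTGA (the TCF core), and none of these is contained in another. The *Entpd1* window printed held 2 GGAAA matches and no GC box at 47.2% GC. The window of the upstream *Entpd1* entry, not printed, held no match to any of the 6 motifs at 62.4% GC. Which start these cells use was not tested. The *Adora2b* window held 6 GC boxes and 2 GGAAA matches at 69.6% GC. The *Ada* window held 1 of each at 67.2% GC, and the *Dpp4* window held no match to any of the 6 motifs at 43.6% GC. A GC box was found in 32.7% and GGAAA in 55.6% of 32817 promoter windows of the same length, so the letters are common. The shares for the other motifs were 6.8% for AP-1, 1.5% for CRE, 16.6% for the hypoxia response core and 13.8% for the TCF core, and none of these matched in the windows printed.

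Levels can be compared between genes only per length, in TPM, a unit scaled by gene length and by the library's total. In repeat DMSO cells the highest were *Dpp4* at 35.2 ± 6.65, *Adora2a* at 31.7 ± 2.6 and *Adk* at 30.1 ± 4.02 TPM (SD, n = 4), and their library ranges overlapped. *Nt5e* followed at 19.1 ± 5.83 TPM, below every library of those genes. *Entpd1* at 6.78 ± 1.37 TPM and *Cd38* at 6.72 ± 2.52 TPM could not be ordered, and neither could *Ada* at 2.85 ± 0.6 TPM and *Adora2b* at 2.04 ± 0.667 TPM. The order was different in single DMSO cells, where *Dpp4* stood at 70.2 ± 21.8 and *Nt5e* at 40.8 ± 8.97 TPM (SD, n = 5), with overlapping libraries. *Adk* at 19.8 ± 2.08 TPM and *Adora2a* at 12.1 ± 4.25 TPM came next without overlap between them, and *Ada* at 7.94 ± 1.64 TPM overlapped *Adora2a*. *Entpd1* at 1.81 ± 0.825 TPM and *Cd38* at 1.01 ± 0.146 TPM overlapped each other, and *Adora2b* was near the floor at 0.07 ± 0.0624 TPM.

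**Figure D1:**
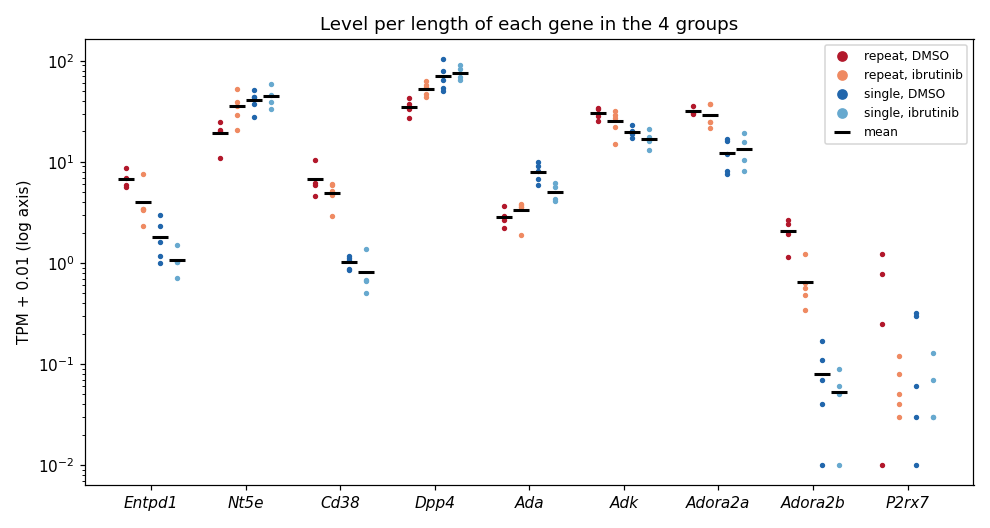
The vertical axis is TPM plus 0.01 on a log axis, each dot is 1 library, colours mark the 4 groups and black bars are group means, which are left out for *P2rx7*. *Dpp4* and *Nt5e* stood highest in single peptide cells, whereas *Entpd1*, *Cd38*, *Adora2a* and *Adora2b* stood higher in repeat peptide cells.

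*P2rx7* was at the limit of detection and was not tested. Its expected counts were 0 to 6 per library in repeat DMSO, 2 to 3 in repeat ibrutinib, 0 to 10 in single DMSO and 3 to 6 in single ibrutinib cells. The group sums of 15, 12, 22 and 19 counts were too low for a comparison, and its TPM rested on effective lengths that ranged from 174 to 4583 bases between libraries. The other 8 genes passed the filter on low counts. Their per-library values below are normalized counts, that is counts scaled to a common library size of 29285633, and they compare libraries within a gene, not genes with each other. A gene was called when the edgeR quasi-likelihood test gave an adjusted p under 0.05 over all 12255 genes tested, its mean normalized count was at least 50 and its log2 fold change exceeded 0.2 in size.

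**Figure D2:**
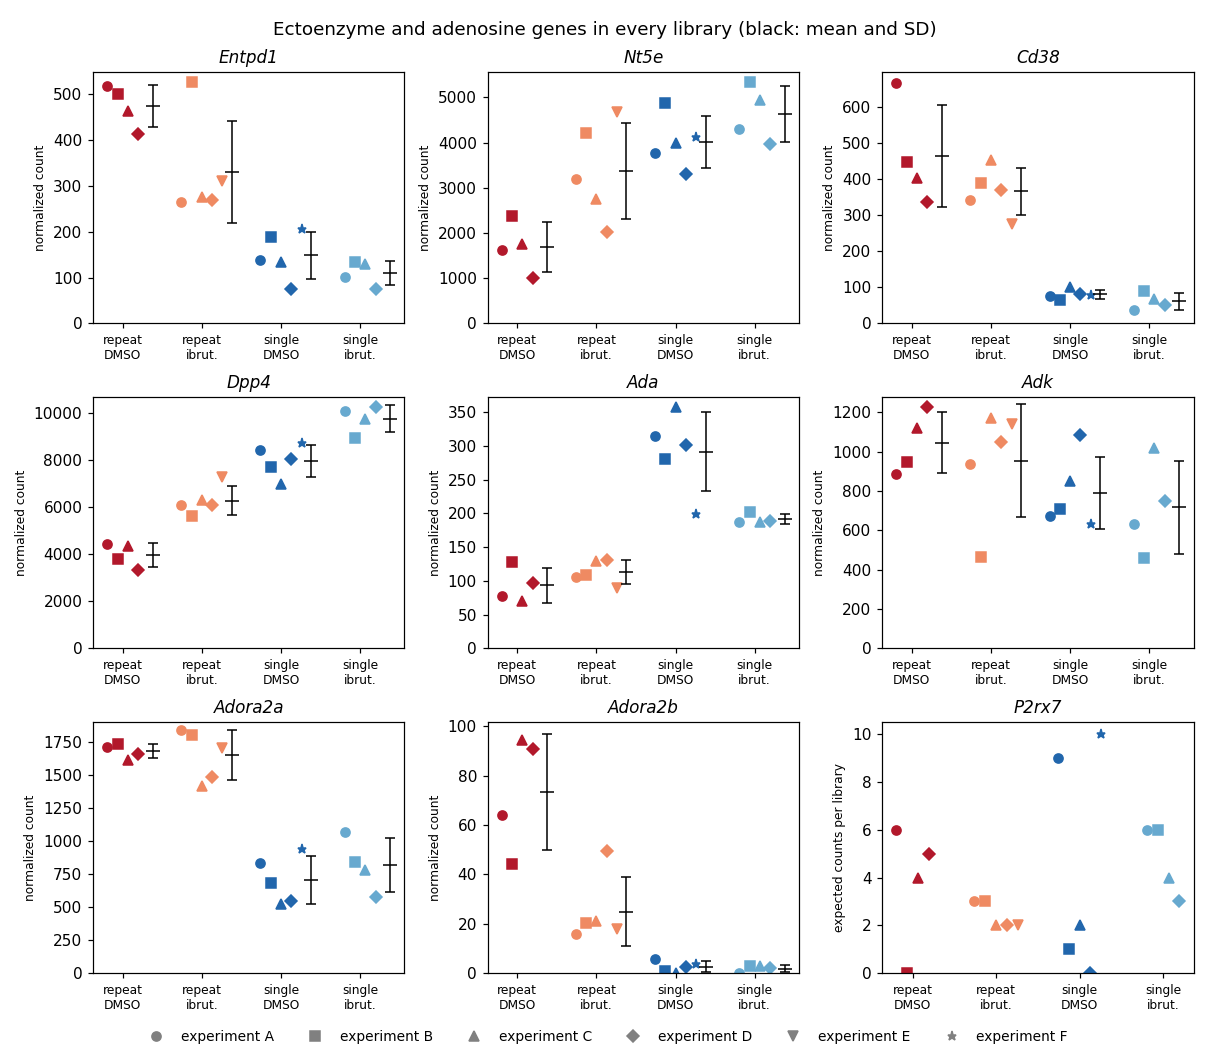
Each panel shows 1 gene, with normalized counts (expected counts for *P2rx7*) on the vertical axis, 1 point per library, the marker giving the experiment, and the black bar the group mean with its SD. All libraries of the repeat groups lie above all libraries of the single groups for *Entpd1*, *Cd38*, *Adora2a* and *Adora2b*, and below them for *Ada*.

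The first question was how repeated stimulation differed from single stimulation without drug. With DMSO, the call went to 6 of the 8 tested genes, 3 with more RNA in repeat peptide cells and 3 with less, against 47% of all genes tested (22.8% higher and 24.2% lower). Whether these shares differ was not tested. *Entpd1*, *Cd38* and *Adora2a* were higher, and *Nt5e*, *Dpp4* and *Ada* were lower. *Adora2b* passed the adjusted p but not the count minimum, and *Adk* did not pass the test. In bulk RNA, fewer cells expressing a gene and less RNA per cell cannot be told apart.

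*Entpd1*, the gene of the ATP-cutting enzyme, had normalized counts of 518, 499.5, 463 and 413 in repeat DMSO A to D. In single DMSO the counts were 138, 188, 134, 75.9 and 206 in A, B, C, D and F. The lowest repeat library was above the highest single library. The fitted rise was 3.2-fold (log2 1.68, SE 0.259, adjusted p = 3.26e-05), and within experiments A to D it ran from 1.41 to 2.44 on the log2 scale.

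*Nt5e*, which makes the adenosine, went the other way. Its counts were 1623, 2378, 1758 and 1009 in repeat DMSO A to D, against 3762, 4872, 3997, 3307 and 4115 in single DMSO A, B, C, D and F. The groups did not overlap, and experiment D was lowest in both. *Nt5e* was 2.37-fold lower in repeat peptide cells (log2 -1.25, SE 0.23, adjusted p = 0.000188), and lower in 4 of 4 experiments. The pair of enzymes that act in sequence on ATP and AMP thus differed in opposite directions at the RNA level.

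*Cd38*, the NAD-consuming enzyme, showed the largest rise among the called members. Repeat DMSO A to D had 667, 449, 404 and 337 normalized counts, and single DMSO A, B, C, D and F had 77.5, 66, 101, 80.5 and 79.2. Even the lowest repeat library was well clear of the highest single library. The fitted rise was 5.74-fold (log2 2.52, SE 0.24, adjusted p = 1.33e-07). *Dpp4*, the gene of the surface peptidase CD26, had 4426, 3785, 4354 and 3320 counts in repeat DMSO A to D and 8447, 7696, 6977, 8066 and 8714 in single DMSO A, B, C, D and F. All single libraries were above all repeat libraries, and *Dpp4* was 2.01-fold lower in repeat peptide cells (log2 -1.01, SE 0.101, adjusted p = 2.56e-07). An antisense gene, Gm13561, overlaps an exon of *Dpp4*, but held at most 5 counts in any library.

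Of the enzymes that remove adenosine, only *Ada* was called. *Ada* had 77.9, 127, 70.4 and 97.1 normalized counts in repeat DMSO A to D, against 315, 281, 358, 302 and 199 in single DMSO A, B, C, D and F. The groups were separate, with single DMSO F the lowest of its group. *Ada* was 3.12-fold lower in repeat peptide cells (log2 -1.64, SE 0.203, adjusted p = 3.05e-06). *Adk* counts overlapped between the groups, at 888, 949, 1118 and 1227 in repeat DMSO A to D and 674, 707, 853, 1085 and 631 in single DMSO A, B, C, D and F. Its log2 difference was 0.40 with SE 0.242 and adjusted p = 0.169, although each repeat library exceeded the single library of its own experiment by 0.18 to 0.42 on the log2 scale.

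Both receptor genes stood higher in repeat peptide cells. *Adora2a* had 1710, 1732, 1615 and 1661 normalized counts in repeat DMSO A to D and 835, 685, 521, 550 and 939 in single DMSO A, B, C, D and F. The repeat libraries lay close together and the single libraries were more scattered, with no overlap. The rise was 2.38-fold (log2 1.25, SE 0.171, adjusted p = 8.89e-06). *Adora2b* had 64, 44.4, 94.3 and 90.7 normalized counts in repeat DMSO A to D, from 45 to 126 expected counts per library. In single DMSO it had 0 to 5 expected counts, 12 over the 5 libraries, so single stimulated cells were at the floor of detection. The ratio of the summed counts, scaled by library size, was 27.8 with an exact 95% counting interval of 15.7 to 54.4, which covers counting error only. The fitted log2 difference was 4.71 (SE 0.616, adjusted p = 5.67e-06), and the mean normalized count of 24.4 over the 18 libraries was under the minimum of 50, so *Adora2b* was not among the called genes.

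**Figure D3:**
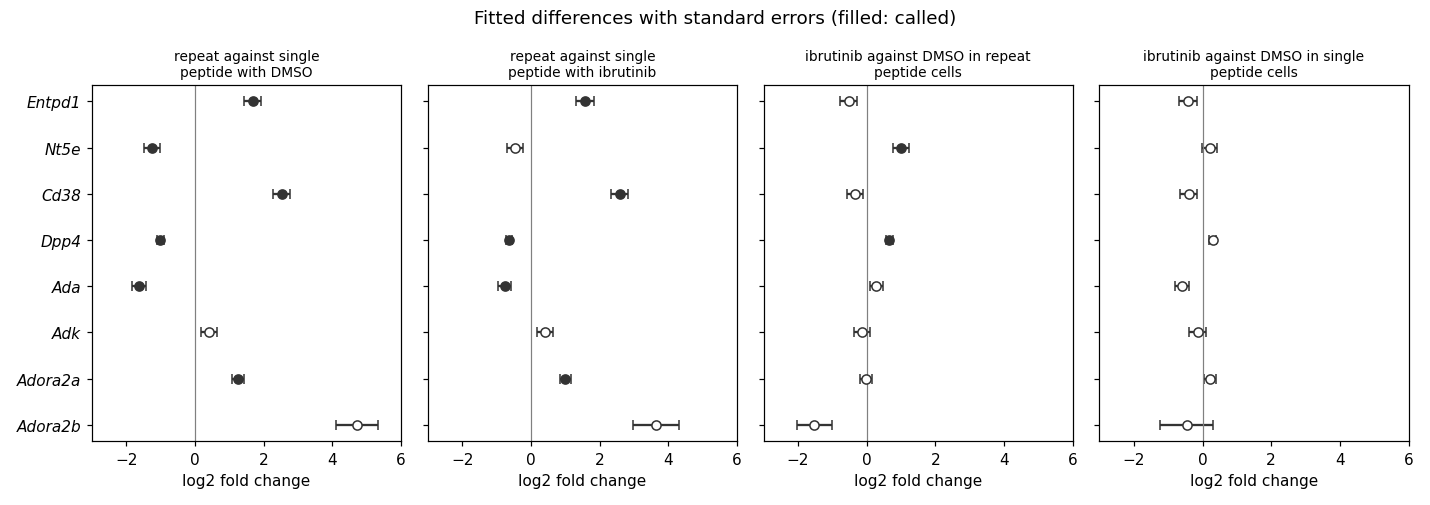
The horizontal axes show the fitted log2 fold change and its standard error for the 8 tested genes in 4 comparisons, with filled points for called genes. In the DMSO comparison *Entpd1*, *Cd38* and *Adora2a* lie to the right and *Nt5e*, *Dpp4* and *Ada* to the left, and with ibrutinib in repeat peptide cells only *Nt5e* and *Dpp4* are filled.

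The second question was what ibrutinib did to repeat peptide cells. Called were 2 of the 8 tested genes, *Nt5e* and *Dpp4*, both higher with ibrutinib, against 5.92% of all genes tested (4.01% higher and 1.92% lower). Both are genes that were lower in repeat than in single peptide cells with DMSO. These comparisons share the repeat DMSO libraries, so the directions are not independent. None of the genes that were higher in repeat peptide cells was called lower with the drug in this fit. With the experiment as a block *Entpd1* was, in a fit that called 13.8% of all genes.

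*Nt5e* had 3202, 4208, 2763, 2030 and 4666 normalized counts in repeat ibrutinib A, B, C, D and E, beside the 1009 to 2378 of repeat DMSO. The ranges overlapped because ibrutinib D was below DMSO B, yet the ibrutinib library was higher in 4 of 4 experiments, by 0.98, 0.82, 0.65 and 1.01 on the log2 scale in A to D. The fitted rise was 1.99-fold (log2 0.99, SE 0.228, adjusted p = 0.0126). Without repeat DMSO D the rise was 0.82 with adjusted p = 0.0522, and with only the compared groups in the fit it was 1.02 with adjusted p = 0.0609. With the experiment as a block the call held, at 0.86 with adjusted p = 9.69e-05.

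*Dpp4* had 6105, 5642, 6309, 6097 and 7266 normalized counts in repeat ibrutinib A, B, C, D and E. All 5 were above the highest repeat DMSO library, at 4426 counts. The rise was 1.58-fold (log2 0.66, SE 0.1, adjusted p = 0.000574), and it was 0.46, 0.58, 0.53 and 0.88 on the log2 scale within experiments A to D. *Ada* was not called. Its counts of 106, 109, 130, 131 and 89.3 in repeat ibrutinib A, B, C, D and E overlapped those of repeat DMSO, and the log2 difference was 0.28 (SE 0.199, adjusted p = 0.438).

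Among the genes that were higher after repeated stimulation, *Entpd1* had 264, 526, 276, 269 and 311 normalized counts in repeat ibrutinib A, B, C, D and E. Of these, 4 lay below every repeat DMSO library and B lay above them all. The log2 difference was -0.52 (SE 0.254, adjusted p = 0.238). With the experiment as a replicate block it was -0.55 and passed, at adjusted p = 0.0452, in a fit that called 13.8% of all genes, and without repeat ibrutinib B it was -0.75 with adjusted p = 0.0932. *Entpd1* was lower with ibrutinib in 3 of 4 experiments, by -0.97, -0.74 and -0.62 in A, C and D, with 0.07 in B.

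*Cd38* had 342, 390, 454, 370 and 275 normalized counts in repeat ibrutinib A, B, C, D and E, which overlapped repeat DMSO. The log2 difference of -0.34 (SE 0.227, adjusted p = 0.408) was split 2 to 2 between higher and lower in experiments A to D. *Adora2a* was nearly level, with 1837, 1800, 1417, 1488 and 1703 counts in repeat ibrutinib A, B, C, D and E and a log2 difference of -0.03 (SE 0.17, adjusted p = 0.947). *Adk* had 939, 466, 1173, 1049 and 1139 counts in the same order, with B alone below the DMSO range, and a log2 difference of -0.13 (SE 0.242, adjusted p = 0.797).

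*Adora2b* showed the largest fitted fall, without passing the test. Its normalized counts in repeat ibrutinib A, B, C, D and E were 15.8, 20.5, 21.3, 49.6 and 17.9, so 4 libraries were below the DMSO range and D was within it. The log2 difference was -1.53 (SE 0.502, adjusted p = 0.0773). *Adora2b* was lower in 4 of 4 experiments, by -1.99, -1.10, -2.12 and -0.86 in A to D. The summed counts, 154 against 311, gave a ratio of 0.392 with an exact 95% counting interval of 0.321 to 0.477, which leaves out the spread between libraries. The adjusted p was 0.03 without repeat ibrutinib D and 0.0188 by DESeq2, and the gene stayed under the count minimum in each case.

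**Figure D4:**
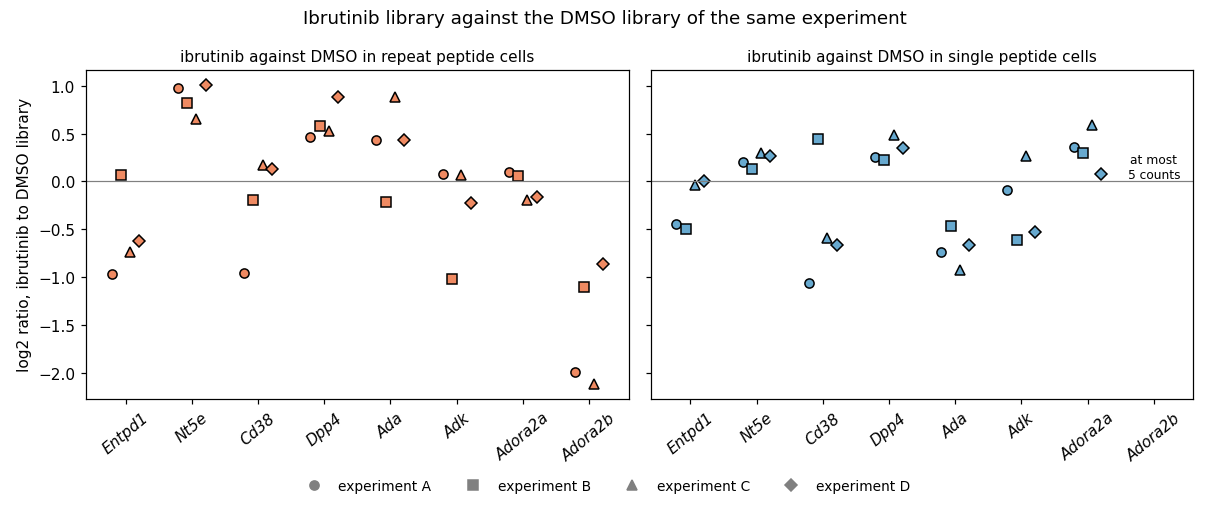
The vertical axis is the log2 ratio of the ibrutinib library to the DMSO library of the same experiment, with 1 marker per experiment A to D, for repeat peptide cells on the left and single peptide cells on the right. *Nt5e* and *Dpp4* are above 0 in 4 of 4 experiments in both panels, *Adora2b* is below 0 in 4 of 4 on the left, and *Ada* is below 0 in 4 of 4 on the right.

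In single peptide cells, 0 of the 8 tested genes were called with ibrutinib, against 3.04% of all genes tested. By edgeR, 2 of them, *Ada* and *Dpp4*, had an unadjusted p under 0.05. *Ada* had 188, 202, 187 and 189 normalized counts in single ibrutinib A to D, which lay within the 199 to 358 of single DMSO only at B, and its log2 difference was -0.60 (SE 0.195, adjusted p = 0.122). *Dpp4* had 10070, 8957, 9755 and 10270 counts, all above the highest single DMSO library, and its log2 difference was 0.29 (SE 0.098, adjusted p = 0.145). Both passed with the experiment as a block, *Ada* at -0.71 with adjusted p = 0.0183 and *Dpp4* at 0.32 with adjusted p = 0.0251, in a fit that called 9.09% of all genes. Without single DMSO F, the library with no partner, *Ada* passed at -0.71 with adjusted p = 0.0425, and by DESeq2, which called 4.99% of all genes, it passed at -0.63 with adjusted p = 0.0271.

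The other genes did not pass the test in single peptide cells. *Nt5e* had 4309, 5346, 4936 and 3966 normalized counts in single ibrutinib A to D and a log2 difference of 0.21 (SE 0.222, adjusted p = 0.78), higher in 4 of 4 experiments. *Entpd1* had 101, 133, 130 and 76 counts and *Cd38* had 37, 89.9, 66.8 and 50.3, both overlapping single DMSO. The log2 difference was -0.43 for *Entpd1* (SE 0.266, adjusted p = 0.543), lower in 3 of 4 experiments, and -0.40 for *Cd38* (SE 0.247, adjusted p = 0.537), also lower in 3 of 4. *Adora2a* had 1068, 846, 783 and 580 counts and was higher in 4 of 4 experiments, by 0.08 to 0.59, while its fitted difference of 0.21 had adjusted p = 0.668. *Adk* had 633, 462, 1019 and 752 counts, and *Adora2b* had 0 to 3 expected counts per library, which allowed no comparison.

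Whether ibrutinib acted differently on the 2 kinds of cells was tested as the difference of its effects, for which 0 of the 8 genes were called, against 1.26% of all genes tested. By edgeR the unadjusted p was under 0.05 for 3 genes. *Ada* differed most clearly, by 0.89 on the log2 scale (SE 0.278, adjusted p = 0.151), since its difference was 0.28 in repeat and -0.60 in single peptide cells. *Nt5e* differed by 0.78 (SE 0.317, adjusted p = 0.319) and *Dpp4* by 0.37 (SE 0.14, adjusted p = 0.262). With the experiment as a block, *Ada* passed at 1.08 with adjusted p = 0.0216 and *Nt5e* at 0.63 with adjusted p = 0.0239, where 5.54% of all genes were called. DESeq2 without the block, which called 2.86% of all genes, passed *Ada* alone of the members, at 0.91 with adjusted p = 0.0418.

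With ibrutinib in both kinds of cells, 5 of the 8 genes were called between repeat and single peptide cells, against 38.4% of all genes tested. *Entpd1* was 2.99-fold (log2 1.58, SE 0.27, adjusted p = 0.000137), *Cd38* 5.99-fold (log2 2.58, SE 0.255, adjusted p = 3.83e-07) and *Adora2a* 2.01-fold (log2 1.01, SE 0.174, adjusted p = 0.000151) higher in repeat peptide cells. *Dpp4* was 1.55-fold lower (log2 -0.64, SE 0.098, adjusted p = 4.97e-05) and *Ada* 1.69-fold lower (log2 -0.76, SE 0.194, adjusted p = 0.00423). *Nt5e*, which was called with DMSO, had a log2 difference of -0.46 (SE 0.222, adjusted p = 0.102). It passed with the experiment as a block, at -0.65 with adjusted p = 0.000125 where 48.6% of all genes were called, and without repeat ibrutinib E, at -0.61 with adjusted p = 0.0348. *Adk* had a log2 difference of 0.41 (adjusted p = 0.184), which passed without repeat ibrutinib B, at 0.61 with adjusted p = 0.0186, and without single ibrutinib C, at 0.66 with adjusted p = 0.0443. For *Adora2b*, 154 counts against 8 gave a ratio of 15.4 with an exact counting interval of 7.6 to 36.2.

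Repeat peptide cells given ibrutinib were also set against single peptide cells given DMSO, to see how far each gene stood from single stimulated cells after the drug. Called were 5 of the 8 genes, against 32.9% of all genes tested. *Cd38* remained 4.54-fold (log2 2.18, SE 0.23, adjusted p = 1.34e-06), *Adora2a* 2.34-fold (log2 1.22, SE 0.163, adjusted p = 1.9e-05) and *Entpd1* 2.22-fold higher (log2 1.15, SE 0.248, adjusted p = 0.00143). *Ada* was 2.57-fold lower (log2 -1.36, SE 0.186, adjusted p = 2.46e-05). *Dpp4* was 1.27-fold lower (log2 -0.34, SE 0.093, adjusted p = 0.00731), and the libraries overlapped here. *Nt5e* had a difference of -0.25 (SE 0.21, adjusted p = 0.366), and with the experiment as a block -0.42 with adjusted p = 0.00538, where 40.7% of all genes were called. *Adora2b*, at 154 counts against 12, had a ratio of 10.9 with an exact counting interval of 6.07 to 21.6.

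The other genes of the route were followed in 10 lists, each described by counts and by its median beside the median of all genes tested. That overall median was -0.002 on the log2 scale for repeat against single DMSO cells and 0.004 for ibrutinib in repeat peptide cells. For the counts in the lists, the shares over all genes are 22.8% called higher and 24.2% lower in repeat than in single DMSO cells, and 4.01% higher and 1.92% lower with ibrutinib in repeat peptide cells. The ectonucleotidase list also holds relatives that act inside the cell, so its counts are not a measure of extracellular breakdown. Of its 12 tested genes, 3 were higher and 8 lower in repeat than in single DMSO cells, with a median log2 difference of -0.67, members included. Beside *Entpd1*, the risers were *Enpp1*, which cuts ATP to AMP directly, at 2.78-fold (adjusted p = 2.61e-06), and *Entpd7*, at 1.63-fold (adjusted p = 0.00458). The largest fall was that of *Acp3*, an acid phosphatase that like CD73 can act on AMP, at 11.3-fold (log2 -3.50, SE 0.498, adjusted p = 1.4e-05), and *Enpp5* was 2.96-fold lower (adjusted p = 0.00389). With ibrutinib in repeat peptide cells, 4 of the 12 were called higher and 0 lower, with a median of 0.34. Beside *Nt5e* these included *Acp3* at 3.24-fold (log2 1.70, SE 0.477, adjusted p = 0.0399) and *Enpp4* at 1.71-fold (adjusted p = 0.02).

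Of 14 tested NAD enzymes, 5 were higher and 5 lower in repeat DMSO cells, with a median of 0.22. *Bst1*, the other NAD-consuming surface enzyme of the CD38 family, was fitted 11.4-fold higher (log2 3.51, SE 0.58, adjusted p = 6.41e-05). Per length *Bst1* rose less, from a mean of 0.288 TPM in single DMSO to 2.02 TPM in repeat DMSO. *Nadk2*, a mitochondrial NAD kinase, was 1.57-fold higher (adjusted p = 3.49e-05). *Sarm1*, an NAD hydrolase, was 3.74-fold lower (adjusted p = 0.000182). *Art2b*, an ADP-ribosyltransferase that uses extracellular NAD to modify surface proteins including P2X7, was 10.7-fold lower (log2 -3.43, SE 0.367, adjusted p = 5.55e-07). It rose 6.04-fold with ibrutinib in repeat peptide cells (log2 2.59, SE 0.358, adjusted p = 0.000301), from a mean of 2.59 TPM to 14.3 TPM, beside 24.2 TPM in single DMSO cells. A near-identical gene copy lies beside *Art2b*, so how reads were split between the copies is uncertain. *Nmnat2*, an NAD-making enzyme, also rose with ibrutinib, 2.28-fold (adjusted p = 0.0208), and these were the 2 called of the 14. Per length, *Nmnat2* rose less, from a mean of 1.12 TPM in repeat DMSO to 1.5 TPM in repeat ibrutinib cells.

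**Figure D5:**
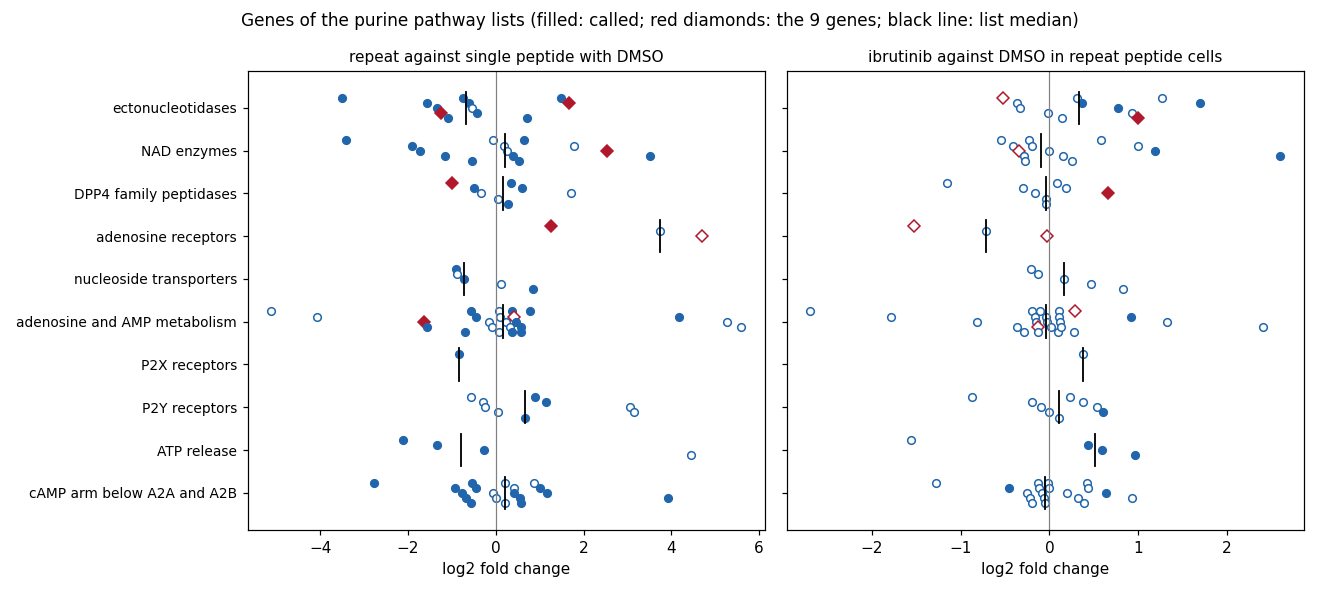
Each point is 1 tested gene at its fitted log2 fold change in the row of its list, filled where called, with the 9 genes as red diamonds where tested and the list median as a black line. The median of the ectonucleotidase list, which also holds relatives inside the cell, is -0.67 for repeat against single DMSO cells on the left. It is 0.34 for ibrutinib in repeat peptide cells on the right.

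The peptidases listed with *Dpp4*, not all of them of its family, were mixed. Of 8 tested, *Dpp4* included, 3 were higher and 2 lower in repeat DMSO cells, with a median of 0.16, and *Dpp4* itself was the only one called with ibrutinib in repeat peptide cells. *Prep*, a prolyl peptidase of the cytosol, was 1.52-fold higher (adjusted p = 0.00016), *Dpp3* 1.26-fold higher (adjusted p = 0.00262) and *Dpp7* 1.41-fold lower (adjusted p = 0.021) in repeat DMSO cells. The 3 tested adenosine receptors had a median log2 difference of 3.75, carried by *Adora2b* and by *Adora3*, which were both under the count minimum, and *Adora2a* alone was called. Of 5 tested nucleoside transporters, *Slc29a1*, the main equilibrative carrier of adenosine, was 1.79-fold higher (adjusted p = 1.69e-05), whereas *Slc28a2* was 1.88-fold lower (adjusted p = 0.000729) and *Slc29a2* 1.66-fold lower (adjusted p = 0.0436) in repeat DMSO cells, and 0 were called with ibrutinib in repeat peptide cells.

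Inside the cell, 7 of 24 tested genes of adenosine and AMP metabolism were higher and 5 lower in repeat DMSO cells, with a median of 0.15. *Ak4*, a mitochondrial adenylate kinase, was fitted 18.1-fold higher (log2 4.18, SE 0.665, adjusted p = 4.33e-05). Per length *Ak4* rose more, from a mean of 0.21 TPM in single DMSO to 10.8 TPM in repeat DMSO. *Samhd1*, which breaks down deoxynucleotides, was 2.95-fold lower (log2 -1.56, SE 0.118, adjusted p = 7.77e-09), as was *Ahcyl2*, at 1.64-fold (adjusted p = 3.56e-05). With ibrutinib in repeat peptide cells *Samhd1* was the only one of the 24 called, 1.89-fold higher (log2 0.92, SE 0.115, adjusted p = 0.000114).

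On the ATP side, *P2rx4* was the only P2X gene that could be tested, and it was 1.78-fold lower in repeat DMSO cells (adjusted p = 0.0237). Of 9 tested P2Y and related receptors, 3 were higher and 0 lower, with a median of 0.68, among them *P2ry14*, a receptor for UDP sugars, at 2.21-fold (adjusted p = 7.7e-05) and *Gpr174*, a lysophosphatidylserine receptor, at 1.87-fold (adjusted p = 9.74e-05). *Gpr34*, of the same receptor group, rose 1.52-fold with ibrutinib in repeat peptide cells (adjusted p = 0.0402). Of 4 tested genes of ATP release, 3 were lower in repeat DMSO cells, where 24.2% of all genes were, and 3 rose with ibrutinib, where 4.01% of all genes did. *Slc17a9*, the vesicular nucleotide transporter, was 4.36-fold lower (log2 -2.13, SE 0.202, adjusted p = 1.33e-07) and rose 1.95-fold with ibrutinib (log2 0.96, SE 0.195, adjusted p = 0.00537). *Lrrc8a*, a subunit of volume-regulated anion channels, was 2.52-fold lower (adjusted p = 1.83e-06) and rose 1.51-fold (adjusted p = 0.027). These rises share the repeat DMSO libraries with the falls.

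Downstream of the A2A and A2B receptors, 6 of 19 tested genes of the cAMP arm were higher and 7 lower in repeat DMSO cells, with a median of 0.20. *Pde4a*, a phosphodiesterase that removes cAMP, was fitted 15.1-fold higher (log2 3.92, SE 0.586, adjusted p = 2.3e-05) from a mean of 0.208 TPM in single DMSO. *Adcy6*, an adenylyl cyclase that makes cAMP, was fitted 6.89-fold lower (log2 -2.79, SE 0.326, adjusted p = 1.58e-06). The catalytic subunits of protein kinase A differed in opposite directions. *Prkaca* was 2.23-fold higher (adjusted p = 6.37e-07) and *Prkacb* 1.9-fold lower (adjusted p = 1.28e-05) in repeat DMSO cells. With ibrutinib in repeat peptide cells *Prkaca* was 1.37-fold lower (log2 -0.46, SE 0.125, adjusted p = 0.0348) and *Prkacb* 1.55-fold higher (log2 0.63, SE 0.13, adjusted p = 0.006), the only 2 of the 19 called.

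Over the same lists, ibrutinib in single peptide cells gave 1 call, the rise of *Gpr34* (1.69-fold, adjusted p = 0.0184), where 3.04% of all genes tested were called. The difference of the drug's effects, called for 1.26% of all genes tested, gave 2 calls. These were *Art2b* at 2.51 on the log2 scale (SE 0.47, adjusted p = 0.00944) and *Samhd1* at 1.14 (SE 0.161, adjusted p = 0.000967). *Art2b* averaged 24.2 TPM in single DMSO and 24.5 TPM in single ibrutinib cells, and *Samhd1* went from 221 to 402 TPM with ibrutinib in repeat peptide cells and from 623 to 495 TPM in single peptide cells. Between repeat and single peptide cells under ibrutinib, 38.4% of all genes tested were called in either direction, and whether the lists differ from this share was not tested. Of the 12 genes of the ectonucleotidase list 3 were higher and 6 lower, and of the 14 NAD enzymes 4 were higher and 3 lower. Of the 24 genes of adenosine and AMP metabolism 4 were higher and 5 lower, and of the 19 genes of the cAMP arm 6 were higher and 7 lower. The smaller lists gave 1 higher and 1 lower of the 8 peptidases and of the 5 transporters, 1 higher of the 3 adenosine receptors, 3 higher of the 9 P2Y receptors, and 1 higher and 2 lower of the 4 genes of ATP release, with *P2rx4* lower.

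The tested genes whose pattern over the 18 libraries lay closest to each member were found as the smallest root mean square difference of log2 library-scaled counts, each gene centred on its own mean. For *Cd38* these were *St14* and *Tox*, both at 0.29, and *Slc22a15* at 0.32, against a range of 4.1 for *Cd38* itself. *Entpd1* lay closest to *Ubash3b* at 0.27, *Srgap3* at 0.3 and *Itgav* at 0.31, with a range of 2.76. *Nt5e* lay closest to *Slc25a53* at 0.2, to another ectonucleotidase gene, *Enpp4*, at 0.21, and to *Smap2* at 0.22, with a range of 2.4. *Dpp4* had the nearest neighbours, *Saraf* at 0.14 and *Cdc42se2* and *Ms4a6b* at 0.15, with a range of 1.63. For *Ada* they were *Snai3* at 0.29, *Rnf122* at 0.33 and *Zfp710* at 0.34, with a range of 2.31. *Adk* lay near *Hsp90aa1* at 0.18 and *Cops6* and *Strap* at 0.2, with a range of 1.41, and *Adora2a* near *Atp2b4* at 0.23 and *Slc2a8* and *Tfdp2* at 0.25, with a range of 1.81. *Adora2b*, the sparsest, lay near *Nap1l3* at 0.42, B130046B21Rik at 0.48 and *Wdr60* at 0.54, with a range of 5.59. No member was among the 3 closest genes of another.

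Several of these genes are also used by other blood cells, so markers of those cells were read in the same libraries. Summed over 8 B cell markers the level was 1.45 to 8.07 TPM in all libraries, with *Ms4a1* at most 0.08 and *Cd79a* at most 0.18 TPM. Most of the sum was *Cd79b*, at 1.15 to 2.28 TPM in repeat DMSO, 0.96 to 4.09 in repeat ibrutinib, 3.12 to 7.08 in single DMSO and 3.8 to 5.85 in single ibrutinib, and *Cd22*, at up to 3.89 TPM. *Ebf1* went the other way from *Cd79b* with DMSO, at 0.39 to 0.8 TPM in repeat and 0 to 0.18 TPM in single peptide cells. With ibrutinib its levels overlapped, at 0.06 to 0.19 TPM in repeat and 0 to 0.08 TPM in single peptide cells. The 9 myeloid markers summed to 3.95 to 8.19 TPM in repeat DMSO, 4.12 to 8.18 in repeat ibrutinib, 1.34 to 10.4 in single DMSO and 0.68 to 7.01 in single ibrutinib, with *Csf1r* at most 0.03 and *Adgre1* at most 0.09 TPM. Among them *Cd14* was at 1.1 to 2.92 TPM in repeat DMSO and 0.26 to 1 in repeat ibrutinib, against at most 0.04 TPM in single peptide cells. *Cd68* was at 2.58 to 4.18 TPM in repeat DMSO and 3.41 to 6.02 in repeat ibrutinib, against 0.67 to 2.95 in single DMSO and 0.29 to 1.72 in single ibrutinib. The levels of *Cd14* did not overlap between repeat and single peptide cells and lay in the direction of *Entpd1* and *Cd38*, while those of *Cd68* lay in that direction with overlap between the DMSO groups. Other myeloid markers overlapped between the DMSO groups. *Lyz2*, *Mpeg1* and *Itgam* went the other way, at up to 0.04, 0.07 and 0.18 TPM in repeat DMSO against 5.92, 0.87 and 0.45 in single DMSO. *Fcgr3* reached 1.76 TPM in repeat DMSO and 0.3 TPM in single DMSO. The 6 dendritic cell markers summed to 0.22 to 4.33 TPM and the 8 red cell and platelet markers to 0 to 6.27 TPM. Among the dendritic cell markers *Zbtb46* was at 0.43 to 2.31 TPM in repeat DMSO and 0.24 to 0.73 in repeat ibrutinib. It was at 0.04 to 0.2 TPM in single DMSO and 0.03 to 0.11 in single ibrutinib, without overlap, while the other dendritic cell markers overlapped. The 4 NK cell markers summed to 2.64 to 11.6 TPM in repeat DMSO, 2.69 to 26 in repeat ibrutinib, 0.59 to 3.88 in single DMSO and 1.44 to 2.73 in single ibrutinib, mostly as *Klrb1c* in repeat peptide cells. *Klrb1c* alone did not overlap, at 2.64 to 11.3 TPM in repeat DMSO and 2.69 to 25.2 in repeat ibrutinib. It was at 0.51 to 1.94 TPM in single DMSO and 0.82 to 2.63 in single ibrutinib. The other NK cell markers overlapped, with *Ncr1* and *Klra8* at up to 0.03 and 0.19 TPM in repeat DMSO against 1.16 and 1.04 in single DMSO.

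The 5 CD4 and regulatory T cell markers were mixed. They summed to 22.3 to 30.6 TPM in repeat DMSO, 10.2 to 34.5 in repeat ibrutinib, 7.88 to 17.6 in single DMSO and 6.14 to 22.4 in single ibrutinib, without overlap between the DMSO groups and with overlap between the ibrutinib groups. *Zbtb7b* carried most of this in repeat DMSO, at 15.3 to 20.7 TPM against 1 to 5.6 TPM in single DMSO, and *Ikzf4* overlapped, at 5.69 to 9.73 against 4.84 to 8.51 TPM. *Foxp3*, which defines regulatory T cells, went the other way, at 0 to 0.08 TPM in repeat DMSO and 0.77 to 5.55 TPM in single DMSO, and *Cd4* was at or near 0 in all libraries. *Cd40lg* was low and lay in the direction of *Zbtb7b* with DMSO, at 0.56 to 1.53 TPM in repeat and 0 to 0.22 TPM in single peptide cells. With ibrutinib its levels overlapped, at 0 to 0.5 TPM in repeat and 0.14 to 0.76 TPM in single peptide cells. The part of these markers in the differences of the 9 genes was not tested.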

How the data were processed

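RNA was sequenced from 18 libraries of CD8+ T cells in 4 groups. The authors trimmed the reads with Trim Galore and mapped and quantified them with RSEM 1.3.1 and STAR on GRCm38 with Ensembl annotation, and deposited expected counts, TPM, FPKM and effective lengths per gene and library. The deposited FPKM values were not used. TPM as deposited served only for levels. Whether counting used strand is not given in the sources used here.

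Expected counts were rounded, limited to protein-coding and lncRNA genes of GENCODE M21 (27903 of 45706 genes, 98.5% of counts), filtered by group with filterByExpr (12255 genes) and fitted in 1 model of all 18 libraries with TMM and the robust quasi-likelihood test of edgeR 4.0.16 in R 4.3.3, with Benjamini-Hochberg adjustment over all genes. Within-experiment ratios used a pseudocount of 0.5 and the search for like patterns a prior count of 2. The deposited effective lengths entered only an alternative fit. Alternatives included DESeq2 1.42.0, the experiment as a block, other normalization and filters, and each library left out. Deviations from the group means correlated above 0.1 in 24 of 24 library pairs from the same experiment in different groups (0.16 to 0.494, median 0.325). In 97 pairs from different experiments and groups the correlations ran from -0.44 to 0.404, with a median of -0.076. From these values the genotype entry in the labels was taken to pair libraries, although the ranges overlapped. Libraries of the same group all differed by more than counting noise (chi-square over its degrees of freedom 27.8 or more).

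Depth was 23445922 to 51995372 counts per library. The members and lists were chosen with earlier results of these data known. Named beyond the members were, in each list and for 2 comparisons, the called genes with up to 2 largest rises and 2 largest falls, and the 3 genes of closest pattern per member. *Adora3*, and *Gpr34*, *Art2b* and *Samhd1* outside those 2 comparisons, were named after their values were seen. Of the genes that this rule names, 1 is not reported here.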

Additional observations from a re-analysis of the deposited data

Results flagged for a closer look

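Single libraries stood far from the rest of their group, relative to the group's range, in 6 of 68 sets of levels examined (TPM of 9 genes and normalized counts of 8, in 4 groups). For independent, normally distributed sets about 1 in 20 is flagged. These sets share genes and libraries, so the 6 cannot be read as an excess over chance. *Entpd1* in repeat ibrutinib B was at 7.61 TPM against 2.33 to 3.41 TPM in the other libraries of the group, and at 525.5 normalized counts against 264 to 311. *Ada* in repeat ibrutinib E was at 1.86 TPM against 3.54 to 3.78 TPM, and in single ibrutinib B it was at 202 normalized counts against 187 to 189. *Adora2a* in repeat DMSO A was at 35.5 TPM against 30.1 to 30.9 TPM. *Adora2b* in repeat ibrutinib D, the deepest library, was at 49.6 normalized counts against 15.8 to 21.3. The causes were not tested.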

How the results depend on the processing

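Over the settings tried for the 8 tested members, 889 results kept their direction and their side of the threshold, 17 became significant, 2 lost significance (both for *Nt5e* with ibrutinib in repeat peptide cells) and 27 changed sign, in each case a difference that was not called. With the experiment as a replicate block the genes called numbered 1694 for ibrutinib in repeat peptide cells, 1114 in single peptide cells and 679 for the difference of the effects, and the members called 2 in single peptide cells and 2 for the difference. In repeat peptide cells the block called *Entpd1* beside *Nt5e* and *Dpp4*. Beside the calls named with it, the block changed no other member's call. DESeq2 called 1165, 612 and 350 genes and 1 member each in single peptide cells and for the difference. With only the compared groups fitted, 464 genes and 1 member were called in repeat and 181 genes in single peptide cells. Experiments A to D alone gave 1 member in single peptide cells. The cause of these shifts was not tested.

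Leaving out 1 library at a time gave 354 to 874 genes and 1 to 2 members for ibrutinib in repeat peptide cells (393 without repeat DMSO C, 354 without repeat DMSO D, 478 without repeat ibrutinib A). It gave 131 to 391 genes and 0 to 1 members in single peptide cells (198, 239, 131, 205 and 152 genes without single DMSO C, single DMSO D and single ibrutinib A, B and D), and 84 to 171 genes and 0 members for the difference of the effects (84 without repeat DMSO C and 89 without single ibrutinib D). For repeat against single peptide it gave 5072 to 5840 genes and 6 members with DMSO and 3763 to 4924 genes and 5 to 6 members with ibrutinib, and 3090 to 4405 genes and 5 members for repeat ibrutinib against single DMSO. Signs changed on leaving out 1 library for *Adk* (-0.218 to 0.049) and *Adora2a* (-0.056 to 0.023) in repeat peptide cells, for *Adk* in single peptide cells (-0.371 to 0.02), and for the difference of the effects in *Entpd1* (-0.301 to 0.074), *Cd38* (-0.096 to 0.31) and *Adk* (-0.152 to 0.249). That difference was also negative for *Adk* with the block (-0.014) and with effective lengths (-0.007), and for *Cd38* with effective lengths (-0.07). At the depth of these libraries *P2rx7* gave at most 10 and single peptide *Adora2b* at most 5 counts per library, too few for a comparison within those cells.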
